A study of Mus musculus with 16 samples.

Results

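Of 127108 autosomal bins of 10 kb that could be read in every library, 494 were methylated more highly in MII oocytes grown in follicle culture than in oocytes of all 3 other origins. The bins were chosen by their measured methylation. A bin was kept when the mean of the in vitro follicle culture (IFC) libraries was 15 percentage points or more above the highest of the other 3 group means, and those 3 means lay within 15 points of each other. A bin counted as readable with 10 or more CpG calls in each of the 16 libraries. The 494 bins are 0.389% of the readable bins, and the difference between IFC and the other groups inside them is fixed by the choice, so it is given as a description and carries no test.

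All oocytes came from C57BL/6J X CBA/Ca F1 females, and each library was made from a pool of oocytes by post bisulfite adapter tagging (PBAT), in which adapters are added after the bisulfite step and a cytosine that stays C is called methylated. The 4 IFC pools came from preantral follicles that were taken from prepubertal females and grown in culture to the antral stage. Their label age is 23 days, and the donors were younger than that when the follicles were taken. The 5 SO pools came from 23-day-old females superovulated with gonadotropins (eCG, then hCG), the 4 SOA pools from 10-week-old females superovulated in the same way at a higher dose, and the 3 IV pools from 10-week-old females that ovulated naturally without hormones. SO shared the label age of IFC, and IV and SOA were adult. SO and SOA females were injected and IV females were not, while the cultured follicles received FSH and, before collection, hCG with EGF in the medium. Which component of culture goes with the bins was not tested. The libraries are separate pools, and the spread between them may include technical variation.

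The IFC libraries held 5311009 to 8231898 calls, against 5247001 to 19660161 in SO, 5218053 to 23065411 in SOA and 15644144 to 17275310 in IV. Averaged over all readable bins, methylation was 42.2% ± 0.933 in IFC (SD, n = 4), against 42.3% ± 0.691 in SO (n = 5), 42.3% ± 1.13 in SOA (n = 4) and 42.8% ± 2.17 in IV (n = 3). IV1 stood apart at 45.3%, with all other libraries at 40.8 to 43.5%, and IFC4 was among the lowest at 40.9%. The study's authors suspected that IV1 held a little DNA from somatic cells and kept the library, which was not tested here. The labelled cell type was checked at the starts of Peg3, Snrpn, Plagl1, Kcnq1ot1 and Peg10, which carry maternal imprints and are methylated in mature oocytes. Group values there lay between 89.8 and 98.4%. The starts of Mest, which has alternative promoters, gave 45.4 to 67.1%. Pooled over these 6 genes, single libraries ran from 72.3% in SOA3 (47 calls) to 94.9% in SOA2 (98 calls). The lysis text of the labels speaks of a blastocyst, whereas the labelled cell type is oocytes.

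As background, DNA methylation of the mouse oocyte is laid down after birth, while the oocyte grows inside the follicle, by DNMT3A with its cofactor DNMT3L. It covers mainly transcribed gene bodies and leaves large untranscribed stretches and most CpG-rich promoters unmethylated. Most 10-kb bins of an oocyte are therefore either low or high, and a bin at an intermediate level is the less common state.

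The DNA of the leading bins is shown first, because the local CpG content differs between them. For the 4 longest runs of neighbouring bins and for 2 of the 3 member bins with the largest excess outside the 8 runs described in the text, the 200-base window with the most CpGs is printed 5′ to 3′ on the + strand of GRCm38 (RefSeq), with every CpG in capitals. The windows lie at chr11:104169820-104170019 (Crhr1, exon and intron), chr6:85187746-85187945 (Emx1, exon), chr7:45333664-45333863 (Trpm4, at an annotated start), chr7:29124942-29125141 (Ryr1, exon at an annotated start), chr15:98720636-98720835 (Ccdc65, exon and intron) and chr4:152356564-152356763 (Chd5, exon and intron).
Crhr1: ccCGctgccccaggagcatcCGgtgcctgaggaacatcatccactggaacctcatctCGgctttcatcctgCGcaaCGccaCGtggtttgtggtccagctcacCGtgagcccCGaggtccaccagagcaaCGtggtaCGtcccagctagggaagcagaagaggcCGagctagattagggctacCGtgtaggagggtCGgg
Emx1: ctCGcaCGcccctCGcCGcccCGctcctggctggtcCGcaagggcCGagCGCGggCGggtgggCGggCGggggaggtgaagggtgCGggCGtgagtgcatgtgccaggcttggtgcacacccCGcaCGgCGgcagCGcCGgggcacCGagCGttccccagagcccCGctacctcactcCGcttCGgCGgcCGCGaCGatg
Trpm4: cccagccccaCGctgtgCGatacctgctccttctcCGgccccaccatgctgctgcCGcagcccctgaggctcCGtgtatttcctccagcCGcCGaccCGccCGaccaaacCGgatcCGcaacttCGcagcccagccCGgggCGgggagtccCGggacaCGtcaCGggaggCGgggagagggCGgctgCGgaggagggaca
Ryr1: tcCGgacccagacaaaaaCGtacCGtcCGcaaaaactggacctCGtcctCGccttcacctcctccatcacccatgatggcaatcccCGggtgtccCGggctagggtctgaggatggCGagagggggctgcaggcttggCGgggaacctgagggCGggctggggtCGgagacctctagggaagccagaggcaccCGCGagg
Ccdc65: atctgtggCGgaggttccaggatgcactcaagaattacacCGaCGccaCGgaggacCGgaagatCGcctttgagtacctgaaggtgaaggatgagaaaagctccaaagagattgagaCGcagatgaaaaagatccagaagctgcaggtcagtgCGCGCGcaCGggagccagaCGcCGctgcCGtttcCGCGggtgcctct
Chd5: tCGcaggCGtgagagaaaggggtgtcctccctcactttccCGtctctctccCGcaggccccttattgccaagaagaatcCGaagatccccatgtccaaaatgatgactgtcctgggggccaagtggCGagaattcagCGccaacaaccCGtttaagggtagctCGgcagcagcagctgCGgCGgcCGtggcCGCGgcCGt

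These windows did not all share the methylation of their bins. The Emx1 window, with 28 CpGs, had 0 methylated of 9 calls in IFC (95% Wilson interval 0 to 29.9%), against 1 of 58 in SO, 0 of 43 in SOA and 3 of 44 in IV. The Trpm4 window, with 20 CpGs, had 0 of 35 calls methylated in IFC (0 to 9.89%), against 0 of 104 in SO, 1 of 41 in SOA and 2 of 81 in IV. At both CpG-dense sites no IFC call was methylated, although the bins around them were chosen for their higher IFC level, and at Emx1 the 9 calls set only a loose limit. In the Ryr1 window, with 14 CpGs, 7 of 21 IFC calls were methylated (33.3%, interval 17.2 to 54.6%), against 1 of 35 in SO (2.86%, 0.506 to 14.5%), 0 of 5 in SOA and 1 of 24 in IV. The 13 CpGs of the Crhr1 window gave 14 of 20 calls in IFC (70.0%, 48.1 to 85.5%), against 21 of 71 in SO (29.6%), 26 of 74 in SOA (35.1%) and 12 of 88 in IV (13.6%). The Ccdc65 window, with 16 CpGs, was at 96.0% in IFC (24 of 25 calls), against 45.3% in SO, 16.7% in SOA and 45.3% in IV. The Chd5 window, with 15 CpGs, was at 97.9% in IFC (46 of 47 calls), against 62.8% in SO, 53.8% in SOA and 24.5% in IV. These calls are sums over libraries. The intervals treat each call as independent, but 1 read can cover several CpGs of a window, and reads carry no molecular identifiers. The intervals are therefore likely too narrow, and they leave out the spread between libraries.

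Over the 494 bins, mean methylation was 55.2% ± 3.44 in IFC (SD, n = 4), against 33.9% ± 0.858 in SO (n = 5), 31.5% ± 1.28 in SOA (n = 4) and 31.5% ± 2.99 in IV (n = 3). The IFC libraries read 54.8% (IFC1), 59.1% (IFC2), 56.0% (IFC3) and 50.8% (IFC4). The 12 other libraries lay between 29.6% (IV3) and 35.1% (SO4). SO was the highest of the 3 other groups in 265 members (53.6%), SOA in 109 and IV in 120, whereas over all readable bins SO was the highest in 28.7%. The shallow SO libraries read 34.4% (SO1) and 32.8% (SO2, the lowest of the group), and the deeper ones 33.6, 35.1 and 33.8%. IV1, the library with the highest level over all bins, was also above IV2 and IV3 here, at 35.0% against 30.0 and 29.6%. Without IV1, 523 bins (0.411% of those then readable) met the rule, of which 452 were members. Without IFC4, 841 bins (0.658%) did, of which 418 were members.

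**Figure D1:**
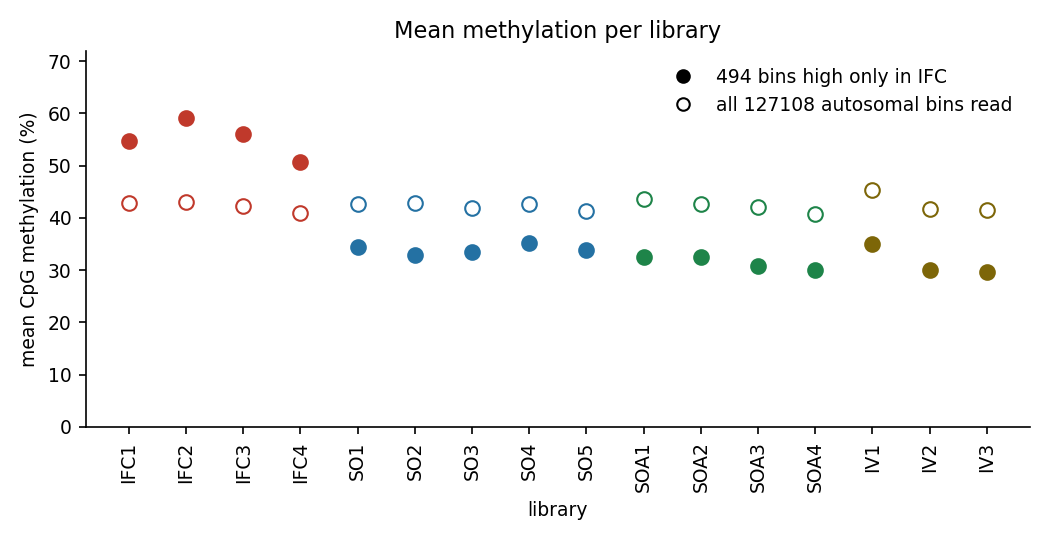
Mean CpG methylation (%) of each of the 16 libraries over the 494 bins high only in IFC (filled points) and over all 127108 readable autosomal bins (open points), coloured by group. The open points lie between 40.8 and 45.3%, while the filled IFC points lie at 50.8 to 59.1% and all other filled points at 29.6 to 35.1%; the bins were chosen for this difference.

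The excess of IFC over the highest other group had a median of 17.9 points (quartiles 16.2 and 20.8) and reached 53.1 points. It was below 20 points in 341 members, 20 to 25 points in 100, 25 to 30 points in 33 and 30 points or more in 20. Most members were thus close to the limit. The 3 members nearest to it, in Zfp787 at chr7:6150000-6159999, in Grik1 at chr16:88210000-88219999 and in Fbxl7 at chr15:26760000-26769999, each had an excess of 15.01 points. The nearest bins left out, in Snx10 at chr6:51560000-51569999, downstream of Ndfip2 at chr14:105350000-105359999 and in Limch1 at chr5:66850000-66859999, had 14.99, 14.99 and 14.98 points. On either side of the limit the libraries overlapped: at Zfp787 the lowest IFC library read 35.6% and the highest other library 40.9%, and at Snx10 41.7 and 50.0%.

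The 4 IFC libraries were all above each of the 12 others in 141 members (28.5%). The background for that count is 0.256% of all readable bins, but the rule used the same contrast and nothing is read from it. Without overlap were 60 of the 341 members with an excess under 20 points, 41 of 100 at 20 to 25 points, 22 of 33 at 25 to 30 points and 18 of 20 at 30 points or more. In 377 members all 4 IFC libraries exceeded the highest of the other group means, in 115 members 3 did and in 2 members 2 did. The rule used the same group means and no share over all readable bins is given beside these counts, so nothing is read from them.

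Outside culture the members were seldom near full methylation, which the rule fixes in part, since it requires room for IFC to be 15 points higher. The highest of the 3 other groups was below 20% in 18.8% of the members against 40.2% of all readable bins, at 20 to 40% in 42.9% against 12.1%, at 40 to 60% in 28.9% against 9.63%, and at 60% or more in 9.31% against 38.1%. In IFC, 21.9% of the members read below 40%, against 55.7% of all readable bins, and 39.7% read 40 to 60%, against 9.23%. A further 30.0% read 60 to 80%, against 8.40%, and 8.50% reached 80% or more, against 26.7%. The median SD within groups over the members was 9.43 points.

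To read the difference in libraries that had no part in the choice, the rule was applied 4 times with the libraries of 1 number left out of every group, and the chosen bins were read in the left-out libraries. Without the libraries numbered 1, 732 bins were chosen, of which 344 were members, and the left-out libraries read 45.0% in IFC1, 36.4% in SO1, 34.6% in SOA1 and 36.4% in IV1. Without those numbered 2, 513 bins (283 members) read 48.2% in IFC2, 37.9% in SO2, 35.8% in SOA2 and 32.3% in IV2. Without those numbered 3, 555 bins (302 members) read 46.8% in IFC3, 36.1% in SO3, 35.2% in SOA3 and 32.0% in IV3. Without those numbered 4, which IV lacks, 796 bins (393 members) read 40.4% in IFC4, 37.2% in SO4 and 30.4% in SOA4. The IFC library was the highest in every round, by 9.22, 12.9, 12.4 and 6.64 points over the mean of the left-out others. Over all readable bins the same differences were -1.10, 0.561, 0.502 and -0.878 points.

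**Figure D2:**
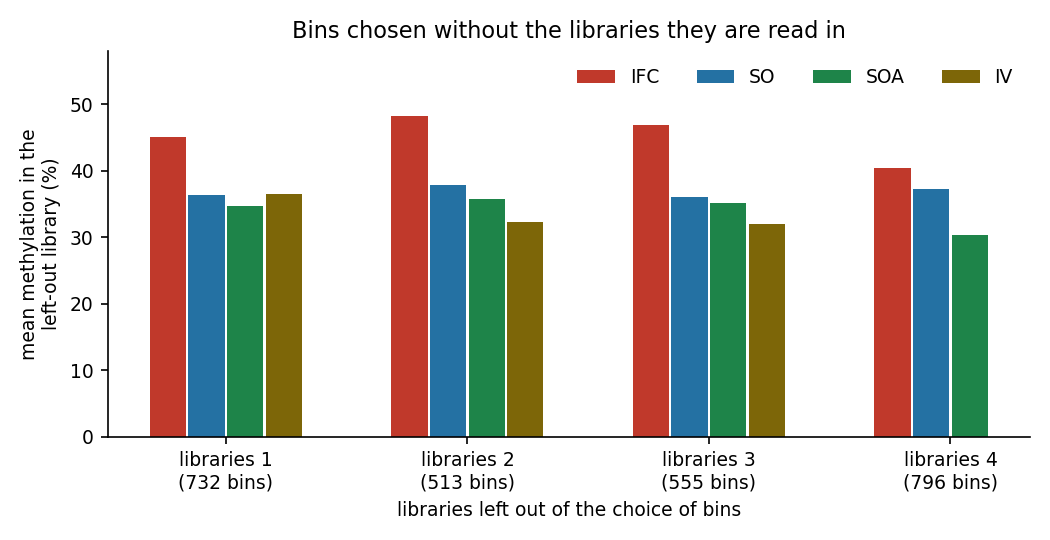
Mean CpG methylation (%) in the left-out library of each group, over the bins chosen without those libraries, for the 4 rounds; each bar is 1 library, so there is no error bar, and IV has no library 4. The left-out IFC bar is the highest in each round, at 40.4 to 48.2%, against 30.4 to 37.9% for the other bars.

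Bin by bin, the left-out libraries were more mixed. The left-out IFC library was above each of the left-out others in 48.1, 56.5, 59.6 and 53.5% of the chosen bins in rounds 1 to 4. Over all readable bins those shares were 18.9, 27.9, 30.3 and 34.3%. It was 15 points or more above all of them in 115, 140, 147 and 143 bins, or 15.7, 27.3, 26.5 and 17.96% of those chosen. The shares over all readable bins were 1.57, 3.15, 2.39 and 2.50%. The readable bins are not matched to the chosen ones for methylation level. In 42.9% of the members the highest other group was at 20 to 40%, against 12.1% of all readable bins. A percentage from few calls varies more at such levels, so these shares are not directly comparable. Against the highest of the left-out libraries the mean difference was -0.419, 2.95, 3.76 and 1.51 points, with a mean over the rounds of 1.95 points. That mean turned to -0.148 points when all libraries were thinned to the depth of the shallowest. The highest of several libraries is above their mean by construction, and over all readable bins the same measure was -8.19, -5.60, -4.56 and -4.07 points. With 1 library per group and round, no p-value is given for these differences.

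The 494 bins formed 458 separate stretches: 427 single bins, 27 runs of 2, 3 runs of 3 and 1 run of 4. The longest run, of 4 bins, lay at chr11:104140000-104179999 and covered most of Crhr1, which encodes a receptor for corticotropin-releasing hormone. Its bases were 83.3% intron, 5.53% exon and 11.2% outside protein-coding genes. Summed over the run, the IFC libraries read 70.4, 78.9, 76.2 and 67.7%, the SO libraries 44.8, 33.3, 28.5, 25.0 and 20.6%, the SOA libraries 31.1, 33.3, 30.3 and 26.9%, and the IV libraries 30.2, 24.0 and 22.6%. Every IFC library was above every other library, and the closest of those, SO1, stood above the rest of its group. The group means were 73.3% ± 5.14 in IFC, against 30.4% ± 9.28 in SO, 30.4% ± 2.67 in SOA and 25.6% ± 4.05 in IV.

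The second bin of that run, chr11:104150000-104159999, had the largest excess of all members, with 83.1% in IFC, against 28.0% in SO, 30.0% in SOA and 24.0% in IV. The run ended with the gene. Crhr1 spans chr11:104132855-104175523 on the + strand, and the bin starting at 104180000, which lies past its end, read 3.27% in IFC, against 3.17% in SO, 4.02% in SOA and 9.29% in IV. On the other side, the bin starting at 104120000, before the gene, read 21.5, 20.3, 22.6 and 24.2%. The bin between, starting at 104130000, holds the start of Crhr1 and was not a member: it read 67.2% in IFC, against 36.6% in SO, 21.3% in SOA and 19.4% in IV, so that its excess was 30.6 points but the other groups lay 17.2 points apart. Further before the gene, IFC was below the adult groups in some bins. The bin starting at 104050000 read 14.2% in IFC and 15.4% in SO, against 30.4% in SOA and 35.8% in IV.

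**Figure D3:**
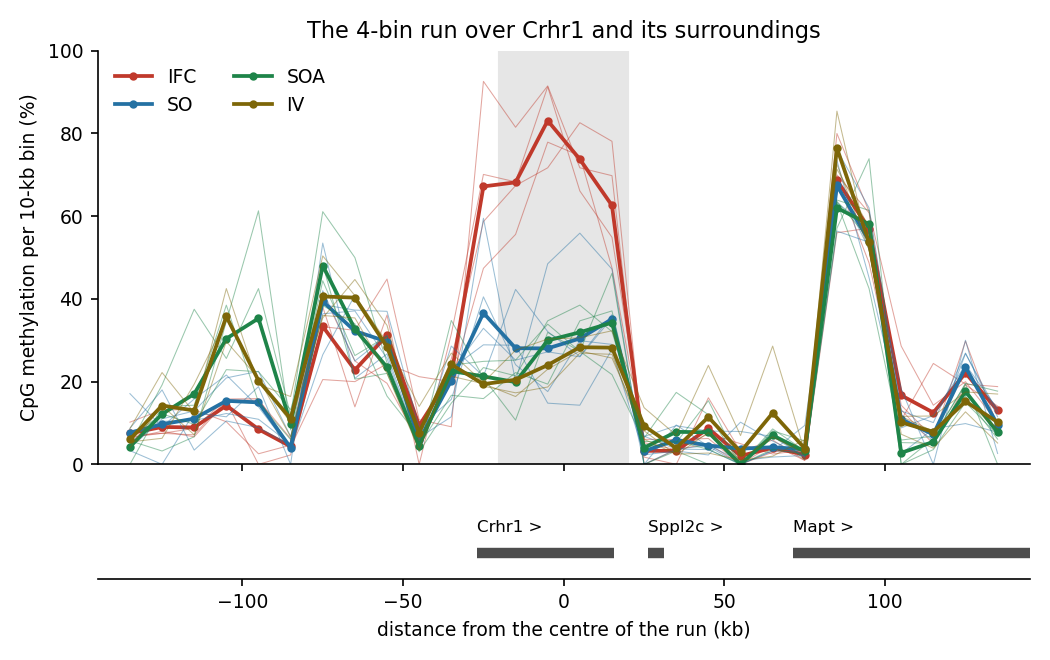
CpG methylation per 10-kb bin (%) against the distance from the centre of the 4-bin run (kb), with thin lines for libraries, thick lines for group means and the member bins shaded; the bars below are annotated protein-coding genes, with > for the + strand. IFC lies at 62.6 to 83.1% in the shaded bins, the other groups at 19.9 to 35.1%, and all groups fall below 10% in the bin past the end of Crhr1.

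The 3 runs of 3 bins were lower. At Emx1, a homeobox gene of the developing cortex, the run chr6:85170000-85199999 read 51.5, 45.9, 52.7 and 39.4% in the IFC libraries and 11.6 to 24.4% in the 12 others. Its middle bin, which holds the Emx1 start and 249 CpGs, was at 42.8% in IFC and at 8.57, 8.02 and 10.0% in SO, SOA and IV. The window printed above lies 308 bp from that start, and none of its 9 IFC calls was methylated. The run chr7:45330000-45359999 over Trpm4, a calcium-activated cation channel, Hrc, a calcium-binding protein of the sarcoplasmic reticulum, and Ppfia3, a liprin, read 40.0, 54.8, 30.4 and 24.5% in IFC and 8.82 to 22.1% elsewhere. The spread within IFC was wider there than the distance of its mean, 37.5%, to that of SO, 17.1%.

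The run chr7:29120000-29149999 over the start of Ryr1, the calcium release channel of skeletal muscle, and over Rasgrp4, an exchange factor for Ras proteins, was the one of the 8 runs described here in which the IFC libraries overlapped the others. The IFC libraries read 45.1, 38.3, 52.1 and 42.7%, and the SO libraries 20.8, 39.8, 22.0, 39.1 and 31.3%. SO2 and SO4 were above IFC2. SOA and IV read 14.5 to 23.7%, below every IFC library. In this run the excess of IFC over SO in the summed calls was 13.95 points, below the limit that each of its bins had passed.

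In the 4 named runs of 2 bins, those of the 27 with the largest mean excess, no library of another group reached the IFC range. The runs in Cystm1 and Cdh6 lay wholly inside the gene, while those at Tcaf2 and Cd101 held the start of the gene, with 15.1 and 2.21% of their bases outside it. Inside an intron of Cystm1, which encodes a small cysteine-rich membrane protein, the run chr18:36370000-36389999 read 55.6 to 68.8% in IFC and 11.2 to 30.5% in the others. In Cdh6, a cadherin, the run chr15:13080000-13099999 read 52.0, 43.4, 69.5 and 41.7% in IFC and 5.29 to 27.7% in the others. At Tcaf2, whose protein associates with TRP channels, the run chr6:42620000-42639999 read 54.5 to 71.1% in IFC and 7.41 to 37.3% in the others. At Cd101, a membrane protein of leukocytes, the run chr3:101010000-101029999 read 42.9 to 55.9% in IFC. SO stayed at 8.81 to 12.0% there and SOA at 13.04 to 17.9%, while IV1 read 34.2%, apart from IV2 at 19.2% and IV3 at 15.2%.

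Of the members outside these 8 runs, the one with the largest excess lay at chr15:98720000-98729999 over Ccdc65, a gene of motile cilia, and Fkbp11, a peptidyl-prolyl isomerase. It read 91.0, 92.5, 85.4 and 87.7% in IFC, against 34.5 to 59.0% in SO, 39.7 to 49.0% in SOA and 34.4 to 44.9% in IV. IFC was close to full methylation there, while the other groups were near the middle of the scale. In Chd5, a chromatin remodeller, at chr4:152350000-152359999, IFC3 and IFC2 read 94.8 and 92.0%, IFC4 and IFC1 76.9 and 74.5%, and the others 28.4 to 61.4%. The next bin of Chd5, starting at 152360000, was also a member, with 62.2% in IFC and an excess of 21.3 points, and its libraries overlapped. At Anxa7 and Mss51, at chr14:20480000-20489999, IFC read 76.9 to 100% and the others 38.6 to 64.7%. At Pygm, the muscle glycogen phosphorylase, at chr19:6380000-6389999, IFC read 75.5 to 88.0%. SOA3 came close to that with 71.4%, apart from 29.8 to 52.7% in the other SOA libraries.

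The bin chr18:36330000-36339999 overlapped no protein-coding gene and ended 2521 bp before the Cystm1 start. It read 61.9, 74.1, 59.3 and 40.8% in IFC, against 6.32 to 14.3% in SO, 18.8 to 23.1% in SOA and 9.38 to 20.5% in IV. The bin before it, starting at 36320000, was a member too, with 66.9% in IFC and an excess of 19.7 points, and IFC4 was within the range of the others there. In Slc12a3, the sodium chloride cotransporter of the kidney, the bin chr8:94330000-94339999 read 52.8 to 74.0% in IFC and 19.6 to 39.7% in the others. Upstream of and at the start of Rab3b, a GTPase of secretory vesicles, the bin chr4:108870000-108879999 read 54.3 to 95.8% in IFC and 29.6 to 51.4% in the others. At Nkx2-9, a homeobox gene, the bin chr12:56610000-56619999 was split within IFC. IFC1, IFC2 and IFC3 read 84.0, 89.4 and 68.0%, and IFC4 read 24.2%, which is inside the range of the other groups (23.4 to 48.0%).

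**Figure D4:**
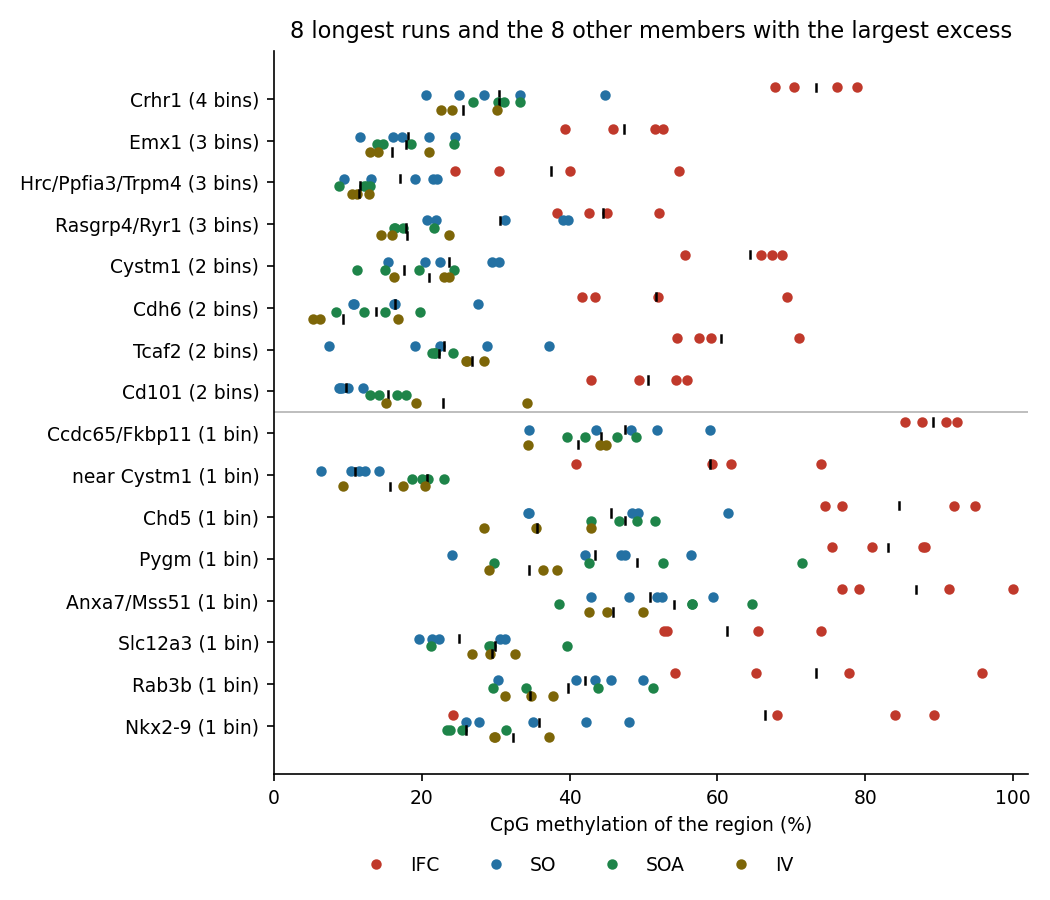
CpG methylation (%) of the 8 longest runs (above the line) and of the 8 members with the largest excess outside them (below it), with 1 point per library, coloured by group, and a black tick at each group mean. Ties in run length were broken by the larger mean excess, and the regions were chosen for this difference. In 14 of the 16 every IFC point lies to the right of all other points, as in 28.5% of the members and 0.256% of all readable bins; the exceptions are the Rasgrp4/Ryr1 run and the Nkx2-9 bin, where IFC4 lies at 24.2%.

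Of the 16 named regions, 9 met the rule in all 4 rounds that left libraries out, and Pygm met it in 1. Over the 53 region and round pairs in which a region was chosen without the left-out libraries, the left-out IFC library was above all left-out others in 51. The mean share over the rounds was 54.4% for all chosen bins and 27.8% for all readable bins. Crhr1 was chosen in every round, with left-out differences of 25.6 to 45.8 points to the highest other library. The exceptions were 1 round of the Ryr1 run, at -1.56 points, and 1 of Nkx2-9, at -3.61 points. The regions were ranked by their excess in all libraries, the left-out ones included, so these counts are largely fixed by the choice and nothing is read from them.

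In the bins next to the members IFC again stood highest and SO next, at a smaller distance, with SOA and IV about equal. Each member has a neighbouring position on either side, and 762 of these positions were readable, a bin between a pair of members being counted for each. At 72 of them (9.45%) the neighbour was itself a member, against 0.389% of all readable bins. At the other 690, the IFC mean was above each other group mean in 370 (53.6%), against 27.0% of all readable bins that are not members. The bins 10 kb before a member read 50.3% ± 1.31 in IFC, against 46.7% ± 1.33 in SO, 44.5% ± 1.72 in SOA and 44.5% ± 2.66 in IV. Those 10 kb after it read 45.4% ± 1.40, 41.5% ± 0.958, 38.9% ± 1.82 and 39.1% ± 2.57. At 30 kb before, IFC read 44.9% ± 1.22 and SO 42.8% ± 1.15. At 100 kb before, IFC, SO, SOA and IV read 43.7, 43.4, 42.8 and 43.6%, and at 100 kb after 45.9, 45.6, 45.1 and 45.3%, differences smaller than the spread between libraries.

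**Figure D5:**
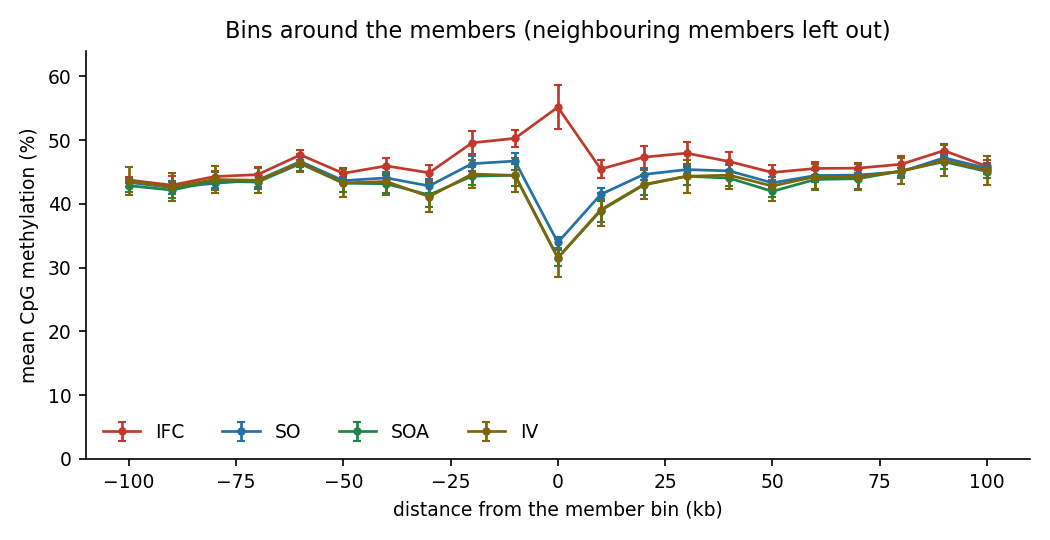
Mean CpG methylation (%) of the bins 10 to 100 kb on either side of a member (at 0), by group, with SDs over libraries; neighbouring bins that are members are left out, and each point rests on 341 to 369 bins beside the 494 members. IFC lies above the other groups next to the members (45.4 to 50.3% at 10 kb) and meets them at 100 kb (43.7 and 45.9%).

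Within the members the IFC excess was present in each class of sequence that was read separately. The classes are parts of bins chosen for that excess, so it is largely fixed by the choice. No value over all readable bins is given beside it, and nothing is read from it. CpGs with at least 10 CpGs in the surrounding 200 bp held 13.3% of the calls in members and read 28.6% ± 6.45 in IFC, against 9.64% ± 0.409 in SO, 9.92% ± 1.42 in SOA and 9.59% ± 0.132 in IV. The lowest IFC library was at 19.8% there and the highest other library at 12.0%. The other CpGs read 57.8% ± 3.78 in IFC, against 37.9% in SO, 35.1% in SOA and 35.0% in IV. The excess was 18.7 points in the dense CpGs and 19.9 points in the rest. Within 500 bp of annotated starts, IFC read 26.5% ± 3.51 and the other groups 10.3 to 10.8%. Exons read 50.5% in IFC and 24.2 to 27.0% in the others, introns 59.1% and 35.2 to 38.2%, and sequence outside protein-coding genes 52.1% and 29.3 to 32.1%.

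In sequence content the members resembled the readable bins as a whole. They held a median of 101 CpGs (quartiles 77.0 and 137), against 101 (79.0 and 129), and their median GC content was 44.2% against 44.3%. Soft-masked sequence, which is mostly repeats, made up 25.0% against 23.8%. Depth was alike, with a median of 968.5 calls per member over all libraries and 927.0 per readable bin. The members held 0.366 to 0.384% of the calls of an IFC library in readable bins and 0.389 to 0.409% in the other libraries, a share that was lower in all 4 IFC libraries. Protein-coding genes overlapped 321 members (65.0%) and 60.2% of all readable bins, and 204 members (41.3%) lay wholly inside such genes, against 42.7%. An annotated start fell in 142 members (28.7%) against 22.3%, and the median distance to the nearest start was 15.1 kb against 21.2 kb. By chromosome, the share of readable bins that were members ran from 0.248% (chromosome 17) to 0.482% (chromosome 4). These shares are descriptions without a test.

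With another group in the place of IFC the same rule found fewer bins. It found 100 bins high only in SO (0.0787% of the readable bins), 224 high only in SOA (0.176%) and 93 high only in IV (0.0732%). The bins low only in those groups numbered 86 (0.0677%), 82 (0.0645%) and 93 (0.0732%). In the other direction, 1195 bins (0.940%) were low only in IFC, more than the 494 (0.389%) that were high. The groups have 3 to 5 libraries of unequal depth, and the part of this in the counts was not tested.

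A member bin overlapped 312 of 17956 measured autosomal protein-coding genes, or 1.74%, and 13 genes held 3 or more. Over all readable bins of the gene, IFC had the highest mean in all 13, against 32.9% of all measured genes, and the IFC libraries lay above all 12 others in 7 of them, namely Map2k6, Crhr1, Efcab8, Kank1, Ryr1, Cpne5 and Cystm1. Over all measured genes the share without overlap was 0.362%. Leaving out the member bins, IFC was still the highest group in the remaining bins of 12 genes, the exception being Caln1, with 63.7% in IFC and 64.8% in SO. Over all measured genes the same share was 32.4%. The 13 genes were picked for their member bins, so nothing is read from these counts.

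Map2k6, the kinase that activates p38 MAP kinases, had the most member bins, with 6 of its 14 readable bins. The whole gene, chr11:110399122-110525522, read 46.5% ± 4.78 in IFC, against 29.3% ± 1.82 in SO, 23.4% ± 2.71 in SOA and 24.1% ± 4.49 in IV. The lowest IFC library was at 39.5% and the highest other library at 31.2%. Its 8 bins that were not members read 36.4% in IFC and 24.1, 17.8 and 20.8% in SO, SOA and IV. The 4 bins flanking the gene, 2 on each side, read 6.66% in IFC and 5.54 to 10.0% in the others. As at Crhr1, where the flanking bins read 9.35% in IFC and 8.77 to 11.3% in the others, the difference between groups was large over the gene. In these flanking bins it was smaller than the spread between libraries. Other flanks differed more. IFC read 35.5% against 16.9 to 24.1% beside Efcab8, 62.1% against 47.7 to 54.5% beside Ryr1 and 24.1% against 11.15 to 16.4% beside Limch1. Their libraries overlapped, and the Ryr1 and Limch1 flanks include member bins. Beside Prdm16, Kank1, Fras1 and Piezo2 another group was the highest.

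Prdm16, a zinc finger transcription factor of the PRDM family, had 5 member bins among 33. The gene as a whole read 53.0% in IFC, against 45.5% in SO, 36.8% in SOA and 36.0% in IV, with SO between IFC and the adult groups, and its libraries overlapped (lowest IFC library 43.9%, highest other 48.3%). Kank1, a regulator of the actin cytoskeleton, had 4 of 21 and read 54.2% in IFC against 45.1, 42.4 and 38.9%. Ryr1 had 4 of 13 and read 33.6% against 20.4, 17.5 and 18.5%, and Efcab8 4 of 8, with 42.9% against 27.9, 24.7 and 25.7%. Cpne5, a copine that binds membranes in a calcium-dependent way, had 3 of 9 and read 35.1% against 19.9, 17.0 and 20.0%. Cystm1 had 3 of 7 and read 57.3% against 34.9, 35.2 and 33.6%. The bins beside it read 76.7% in IFC and 55.4 to 59.4% in the others. The 2 flanking bins before the gene are the members described above, so this difference is fixed in part by the choice.

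In the longer genes with 3 members the gene-wide difference was small. Caln1, a calcium-binding protein of neurons, read 61.2% in IFC and 57.9 to 60.5% in the others. Fras1, a protein of the basement membrane, read 62.0% against 55.8 to 57.0%. Limch1, which acts on the actin cytoskeleton, read 27.6% against 19.8 to 21.6%, and Piezo2, a mechanosensitive ion channel, 28.5% against 21.3 to 24.5%. At Ppfia3, with 3 of 4 bins, IFC ranged from 18.4 to 40.3% between libraries and the others from 10.0 to 19.3%.

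The gene lists were drawn up with earlier results of these data known, and Crhr1, Map2k6 and Prdm16 were among the genes of those results, so the counts are not independent evidence. Of 36 measured imprinted genes, 1 overlapped a member (2.78%). The counts were 1 of 25 among DNA methylation enzymes and cofactors, 0 of 28 among oocyte and maternal-effect genes, 1 of 27 in FSH, LH and steroid signalling, 1 of 39 in insulin, EGF and MAPK signalling, and 1 of 33 in TGF-beta and BMP signalling. The gene of the FSH, LH and steroid list was Crhr1, a receptor for corticotropin-releasing hormone and not for FSH, LH or a steroid. The background is 1.74% of all measured genes, beside which each list holds 1 gene or none. Over all readable bins of the lists, the median of IFC minus the highest other group lay between -2.72 and -0.697 points, beside -2.45 points over all readable bins.

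The listed genes were Crhr1, Map2k6 and Prdm16, described above, Slc38a4 and Tet2. In Slc38a4, an imprinted amino acid transporter, 1 of 7 bins was a member, chr15:97010000-97019999. It read 42.2, 54.2, 27.3 and 12.4% in IFC, against 1.18 to 6.32% in SO, 5.36 to 14.0% in SOA, and 23.1, 9.58 and 6.82% in IV. IFC4 was thus below IV1 and SOA2 there. In Tet2, a dioxygenase that oxidises methylated cytosine, 1 of 6 bins was a member, chr3:133480000-133489999, with 75.5, 40.0, 71.4 and 79.1% in IFC and 26.8 to 61.1% in the others. IFC2 lay inside the range of the other groups. Both bins met the rule through 3 of the 4 IFC libraries.

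The IFC libraries overlapped with others in none of the 4 member bins of Crhr1, in 3 of the 6 of Map2k6 and in 3 of the 5 of Prdm16. Over all members 28.5% were without overlap, and over all readable bins 0.256%, and the rule used this contrast. In Map2k6 the member bin chr11:110420000-110429999 read 49.0, 36.4, 44.4 and 35.8% in IFC and 1.59 to 21.0% in the 12 others. In Prdm16 the bin chr4:154500000-154509999 read 38.0, 56.2, 54.5 and 36.1% in IFC, against 16.7 to 26.4% in SO, 5.56 to 12.1% in SOA and 14.3 to 23.5% in IV. These are bins without overlap. Among those with overlap, the Map2k6 bin chr11:110460000-110469999 read 64.1% in its lowest IFC library and 69.0% in the highest other library, and the Prdm16 bin chr4:154510000-154519999 42.1 and 51.3%.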

How the data were processed

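Methylation was measured by PBAT in 16 libraries. Per the labels, reads were trimmed with Trim Galore 0.4.4 and cutadapt 1.9.1 and mapped to GRCm38 with Bismark 0.19.0. The study reports that duplicates were removed. The deposited tables give, for each CpG position and strand, a percent column and 2 columns of counts (methylated, then unmethylated), with no normalization by the authors. The percent column was not used. Mapping to C57BL/6J can read CBA/Ca C-to-T variants as unmethylated, alike in all groups.

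Counts were summed in 10-kb bins (start a multiple of 10000). A library's value was 100 times methylated over all calls, and a group's value the mean over its libraries. For runs, calls were summed over the bins first. The members and gene lists were chosen with earlier results of these data known. No result carries a test: the rule used the contrast, and the rest is described. The steps were run on simulated calls with no variation between libraries beyond counting, and with some bins raised in IFC well above the limit. Bins near the limit were not examined in this way. Named were the 8 longest runs of adjacent members, with ties in length broken by the larger mean excess. Also named were the 8 members with the largest excess outside those runs and the 3 bins nearest each side of the limit. Protein-coding genes with 3 or more members and listed genes that overlap a member were named too. Genes came from GENCODE M21 and sequences from RefSeq GRCm38.p6; between 97.6 and 99.3% of covered positions were reference CpGs. A median member had 26 to 123 calls per library. Alternatives were other minimums and limits, shifted bins, summed calls, position means, reference positions, a cap on calls, thinning, shallow libraries and each library left out. X chromosome bins were kept apart. Python 3.11.15 with numpy 2.4.6, scipy 1.17.1 and matplotlib 3.10.9 was used.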

Additional observations from a re-analysis of the deposited data

Results flagged for a closer look

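Outside the autosomes, 24 of 2943 readable X chromosome bins (0.815%) met the same rule, against 2 for SO, 3 for SOA and 2 for IV in the place of IFC. Their means were 53.2% ± 6.49 in IFC, against 31.0% ± 4.20 in SO, 29.2% ± 1.27 in SOA and 28.9% ± 3.62 in IV, fixed by the choice. In the other direction 25 X bins were low only in IFC.

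At the Tcaf2 run, SOA2 read 24.2% while the other 3 SOA libraries lay between 21.4 and 21.8%, a gap large for the narrow range of that group. SOA2 rests there on 8 methylated of 33 calls (95% Wilson interval 12.8 to 41.0%), so the gap is within counting error. Of 54 group and region combinations examined for such a gap this was the one found, and about 1 in 20 is flagged by chance.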

How the results depend on the processing

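The number of members depended on the limits. It was 1150 with at least 5 calls in every library and 224 with at least 20, or 0.609 and 0.393% of the bins then readable, and 1657 and 153 with an excess of at least 10 and 20 points. With libraries of fewer than 10000000 calls only, it was 821 (0.646% of the bins then readable). This leaves out IV, so the rule compared IFC with SO and SOA only. With 1 library left out the number ranged from 451 (0.355% of the bins then readable) to 841 (0.658%). The highest was found without IFC4, which raised the number from 494 by more than 1.5 times. Under all 16 omissions 136 members (27.5%) met the rule. Shifted bins, summed calls, position means, reference positions, at most 20 calls per position and thinning gave 444 to 540. The bins were not all the same ones. Of the 494 members, 284 met the rule after thinning, 368 with summed calls and 371 with position means. With reference positions 457 did, and with the cap on calls 494. The mean excess over the members, 19.4 points, stayed between 18.1 and 20.8 points with 1 library left out and between 18.4 and 19.4 points in the other settings. The members were chosen for this excess with all 16 libraries, so its range is largely fixed by the choice. The mean left-out difference between IFC and the highest other library, 1.95 points, was 6.23 with an excess of at least 20 points and 4.68 with at least 20 calls. It turned to -0.148 when all libraries were thinned to the shallowest. Over all bins the same measure was -5.60 without thinning and -6.32 with it. What turned the difference was not tested. In an alternative chosen after seeing the data, the excess of the 16 named regions kept its sign without any 1 library (11.4 to 44.7 points). The regions consist of bins chosen for this excess, so the sign is largely fixed by the choice and nothing is read from it.

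No paired analysis was possible because the results come from no test and the numbers only name libraries. Depth limits single bins: a library with 10 calls gives a percentage in steps of 10 points, so membership near the limit is uncertain.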
